A study of Mus musculus with 19 samples.

Results

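In this data set, 6 RNAs were lower in 1 of a pair of mouse leukemia lines than in the other. They are Mtmr9, Ccnb1ip1, Sema3d, Mamdc2, Zfp532 and the non-coding RNA 5930403L14Rik, 6 of the 24210 named genes in the count table, and all 6 passed the filter on low counts that left 11830 accessions for testing. They were selected on their measured counts, as genes whose RNA was lower in leukemic cells of 1 genotype than of the other with and without a drug, so the fitted values and calls given below for that difference describe the choice and support nothing. Each has a single RefSeq accession in the table, and no choice between accessions was needed.

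The 19 libraries hold polyA RNA of lin- Sca+ cKit+ cells, the stem and early progenitor compartment of blood formation, taken by sorting, without culture, from mice of strain C57BL/6. Wild-type mice (WT) gave 4 libraries. Mice with acute myeloid leukemia (AML) of genotype Idh2 R140Q;Flt3-ITD gave 3 libraries after vehicle and 4 after AG-221, an oral inhibitor of mutant IDH2; leukemic mice of genotype Tet2-/-;Flt3-IDT, as the labels spell it, gave 4 after vehicle and 4 after 5-Aza, a hypomethylating agent that the series text also calls decitabine. The untreated leukemic groups are called IDH2-FLT3 vehicle and TET2-FLT3 vehicle, the treated ones go by their drug, and the 7 and 8 libraries of each genotype are called a line. Gavage with AG-221 lasted 4 to 5 weeks, at 100 mg/kg as a single agent and 40 mg/kg in combination. The dose of 5-Aza was 5 mg/kg, injected for 5 days in every 21 over 4 cycles. The AG-221 dose of each library, the ages, and whether libraries of a group came from separate mice are not given in the sources used here, so p-values measure the spread between libraries, which may be technical. The headers V3 and V3-2 of IDH2-FLT3 vehicle share a number, as do V5 and V5-2 of TET2-FLT3 vehicle; whether either pair comes from 1 mouse is not given, and each library is counted in n. How the Tet2 allele was deleted is not given either. Both leukemic genotypes carry a Flt3 allele that WT lacks, no group carries that allele alone, and each leukemic genotype has a single header prefix. Genotype, line, anything else the mice of a line inherited and, in the treated arms, the drug cannot be told apart.

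Libraries held 9635795 to 20383132 counts. The deepest were V3-2 of IDH2-FLT3 vehicle, with 20140641, and V5-2 of TET2-FLT3 vehicle, with 20383132. Gene counts do not check either engineered allele. Idh2 stood at 311 ± 206 CPM (counts scaled to a common library size, SD, n = 3) in IDH2-FLT3 vehicle and 178 ± 31.3 (n = 4) in WT, and a point mutation leaves counts in place. Tet2 stood at 107 ± 41.0 CPM (n = 4) in TET2-FLT3 vehicle and 130 ± 13.1 (n = 4) in WT. The sort could not be checked with Ly6a, the gene of Sca-1, or with Kit. Ly6a has 6 accessions in the table, all at 0 counts in every library, and Kit has 2, of which the higher one held 4 counts in all. Of the 14603 accessions of genes with several accessions, 61.6% were at 0 in every library, against 18.7% of the accessions of genes with 1. All 6 genes described here belong to the latter kind.

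The 6 genes share no known pathway. Mtmr9 encodes a myotubularin-related protein without phosphatase activity that binds active myotubularins, enzymes that remove phosphate from phosphoinositides of the endosome. Ccnb1ip1, also called Hei10, encodes a RING-finger ubiquitin ligase that binds cyclin B and is needed for crossover formation in meiosis. Sema3d encodes a secreted class 3 semaphorin, a guidance ligand read by neuropilin and plexin receptors. Mamdc2 encodes a secreted protein of the extracellular matrix with MAM domains, and Zfp532 encodes a zinc finger protein found on chromatin in a complex with the zinc finger proteins of Zfp592 and Zfp687 and with Zmynd8. The function of 5930403L14Rik is not known.

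Both drugs act on paths that bear on DNA methylation: mutant IDH2 makes 2-hydroxyglutarate, which inhibits TET enzymes, TET2 oxidises methylcytosine, and hypomethylating agents deplete DNA methyltransferase. CpG dinucleotides are where mammalian DNA methylation falls, so the 250 bases before the start of the 3 genes whose promoters could be matched are shown with each CpG in capitals, on the gene's own strand, from RefSeq on GRCm38.p6. That build differs from mm9, the build the submitters' processing notes name, and no methylation was measured on these windows here.
Ccnb1ip1, chr14:50795729-50795978, minus strand: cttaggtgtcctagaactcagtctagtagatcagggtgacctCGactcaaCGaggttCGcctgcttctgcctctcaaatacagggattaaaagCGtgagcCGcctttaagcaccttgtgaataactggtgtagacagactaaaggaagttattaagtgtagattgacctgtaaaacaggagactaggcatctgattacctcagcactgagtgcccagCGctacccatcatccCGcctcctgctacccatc
Sema3d, chr5:12382916-12383165, plus strand: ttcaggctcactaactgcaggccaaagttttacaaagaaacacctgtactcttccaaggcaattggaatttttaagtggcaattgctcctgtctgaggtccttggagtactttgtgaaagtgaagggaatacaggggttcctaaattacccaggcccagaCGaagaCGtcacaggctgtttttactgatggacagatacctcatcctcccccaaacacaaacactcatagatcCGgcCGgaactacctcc
5930403L14Rik, chr4:154636368-154636617, minus strand: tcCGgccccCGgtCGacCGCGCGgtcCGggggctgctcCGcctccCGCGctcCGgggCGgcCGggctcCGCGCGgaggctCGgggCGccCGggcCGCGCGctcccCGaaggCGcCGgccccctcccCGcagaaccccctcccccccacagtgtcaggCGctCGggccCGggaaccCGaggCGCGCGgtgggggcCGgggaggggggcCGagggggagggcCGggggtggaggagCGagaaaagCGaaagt
The Ccnb1ip1 window holds 7 CpG and the Sema3d window 4, near the median of 6 over 32851 promoters in the table; 46.3% and 62.2% of all windows hold at least as many. The 5930403L14Rik window holds 38 CpG at 82.4% G and C, and 1.88% of windows hold at least as many. Dense and sparse CpG windows therefore both occur among the 6 genes. The dense one belongs to 5930403L14Rik, whose libraries overlapped between the lines when both arms were joined.

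The largest contrast was that of Ccnb1ip1, whose RNA was close to absent from 1 line. WT libraries held 133, 82, 164 and 437 counts of Ccnb1ip1, or 10.2, 6.19, 13.5 and 35.2 CPM. IDH2-FLT3 vehicle held 1, 0 and 0 counts, and AG-221 held 1, 2, 3 and 1. TET2-FLT3 vehicle held 296, 304, 289 and 284 counts and 5-Aza 449, 525, 413 and 290. Every library of the IDH2-FLT3 line thus lay far under every other library, whereas WT and the TET2-FLT3 line overlapped. Over the pooled counts, WT exceeded IDH2-FLT3 vehicle 725-fold with a 95% counting interval of 130 to 28656, which rests on 1 count, and 5-Aza exceeded AG-221 220-fold, with an interval of 107 to 549. These intervals cover counting error only. The fitted difference between the lines, on the log2 scale and with its standard error, was -9.65 ± 0.91 in the vehicle arms and -7.67 ± 0.68 in the drug arms.

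Ccnb1ip1 was the sole accession of the 11830 tested with at most 3 counts in all 7 libraries of the IDH2-FLT3 line and at least 50 in each of the other 12, limits set after its values were seen. No accession showed this pattern for the TET2-FLT3 line, and none showed the reverse pattern, present in 1 leukemic line and off in all other libraries. The level in WT was itself spread widely: the highest WT library, wt4, held 35.2 CPM, and the mean of 16.3 had an SD of 13.0 (n = 4). Means of 25.2 ± 12.8 in TET2-FLT3 vehicle and 34.1 ± 6.96 in 5-Aza (SD, n = 4 each) lay within or near the range of WT, and the fitted differences from WT were 0.63 ± 0.46 and 1.07 ± 0.46 on the log2 scale, neither called at an adjusted p under 0.05 (edgeR, adjusted p = 0.395 and 0.255).

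Mtmr9 had another pattern, in which the lines lay on opposite sides of WT. WT libraries held 64.3, 57.9, 74.6 and 68.4 CPM. IDH2-FLT3 vehicle held 50.7, 37.9 and 32.0, and AG-221 held 20.5, 22.8, 20.2 and 23.9. TET2-FLT3 vehicle held 210, 358, 521 and 477, and 5-Aza held 229, 281, 317 and 293. No library of any of these 3 sets, WT and both lines, overlapped with another set. As a share of the WT mean, Mtmr9 stood at 60.6% in IDH2-FLT3 vehicle and 33.0% in AG-221, and at 5.90 times that mean in TET2-FLT3 vehicle and 4.22 times in 5-Aza. It was the sole accession of those tested (0.00845%) with the whole TET2-FLT3 line above WT and the whole IDH2-FLT3 line under it, an order looked for after the values of Mtmr9 were seen; no accession had the reverse order. The fitted difference between the lines was -3.28 ± 0.30 in the vehicle arms and -3.68 ± 0.27 in the drug arms (log2).

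The remaining 4 genes were highest in WT, intermediate in the TET2-FLT3 line and lowest in the IDH2-FLT3 line. For Sema3d the order held library by library. WT held 23.2, 16.1, 42.9 and 41.4 CPM of it. TET2-FLT3 vehicle held 8.06, 6.95, 3.90 and 3.78, and 5-Aza held 4.13, 7.11, 7.74 and 6.23. AG-221 held 0.926, 1.95, 1.41 and 0.539, and IDH2-FLT3 vehicle held 0.048, 0 and 0.241, from 1, 0 and 3 counts. The lines and WT did not overlap, an order that only Adgrl4, an adhesion receptor gene, shared (2 of 11830, 0.0169%). The pooled counts of WT exceeded those of IDH2-FLT3 vehicle 344-fold with a 95% counting interval of 134 to 1265.

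The non-coding 5930403L14Rik was, like Sema3d, close to 0 in IDH2-FLT3 vehicle. WT held 18.3, 16.2, 24.9 and 19.02 CPM, TET2-FLT3 vehicle 11.6, 5.45, 13.2 and 5.33, and 5-Aza 8.17, 12.5, 12.3 and 11.6. IDH2-FLT3 vehicle held 0.192, 0 and 0.080, from 4, 0 and 1 counts, and AG-221 held 2.78, 2.25, 6.95 and 1.69. In TET2-FLT3 vehicle V5-2 was the highest library for 5930403L14Rik, at 13.2 CPM, and among the lower ones for Sema3d, at 3.90. The library AG1, at 6.95 CPM, lay above 2 of the TET2-FLT3 vehicle libraries, which made this the sole gene of the 6 whose lines overlapped when arms were joined.

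Zfp532 and Mamdc2 were reduced less than Sema3d and 5930403L14Rik in IDH2-FLT3 vehicle. Zfp532 held 24.1, 19.5, 23.4 and 25.7 CPM in WT, 1.11, 0.675 and 2.41 in IDH2-FLT3 vehicle and 6.99, 6.94, 8.76 and 7.55 in AG-221. In the TET2-FLT3 line it held 19.4, 13.8, 19.8 and 11.9 after vehicle and 15.6, 10.8, 13.4 and 12.5 after 5-Aza. TET2-FLT3 vehicle thus overlapped with WT at its upper end, and 5-Aza did not. Mamdc2 held 25.9, 18.8, 31.1 and 28.4 CPM in WT, 1.39, 3.12 and 3.05 in IDH2-FLT3 vehicle and 6.74, 3.32, 3.52 and 4.85 in AG-221. Its TET2-FLT3 libraries held 14.9, 11.5, 15.7 and 16.3 after vehicle and 14.8, 13.7, 19.7 and 9.56 after 5-Aza, and 1 of the latter exceeded the lowest WT library. On the per-length scale the WT means were 31.1 ± 4.15 FPKM for Mtmr9, 12.6 ± 10.8 for Ccnb1ip1, 8.84 ± 2.02 for Mamdc2, 5.41 ± 2.50 for Sema3d, 4.78 ± 0.77 for Zfp532 and 3.90 ± 0.77 for 5930403L14Rik (SD, n = 4 each), so that Mtmr9 was the most abundant and the last 3 overlapped.

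**Figure D1:**
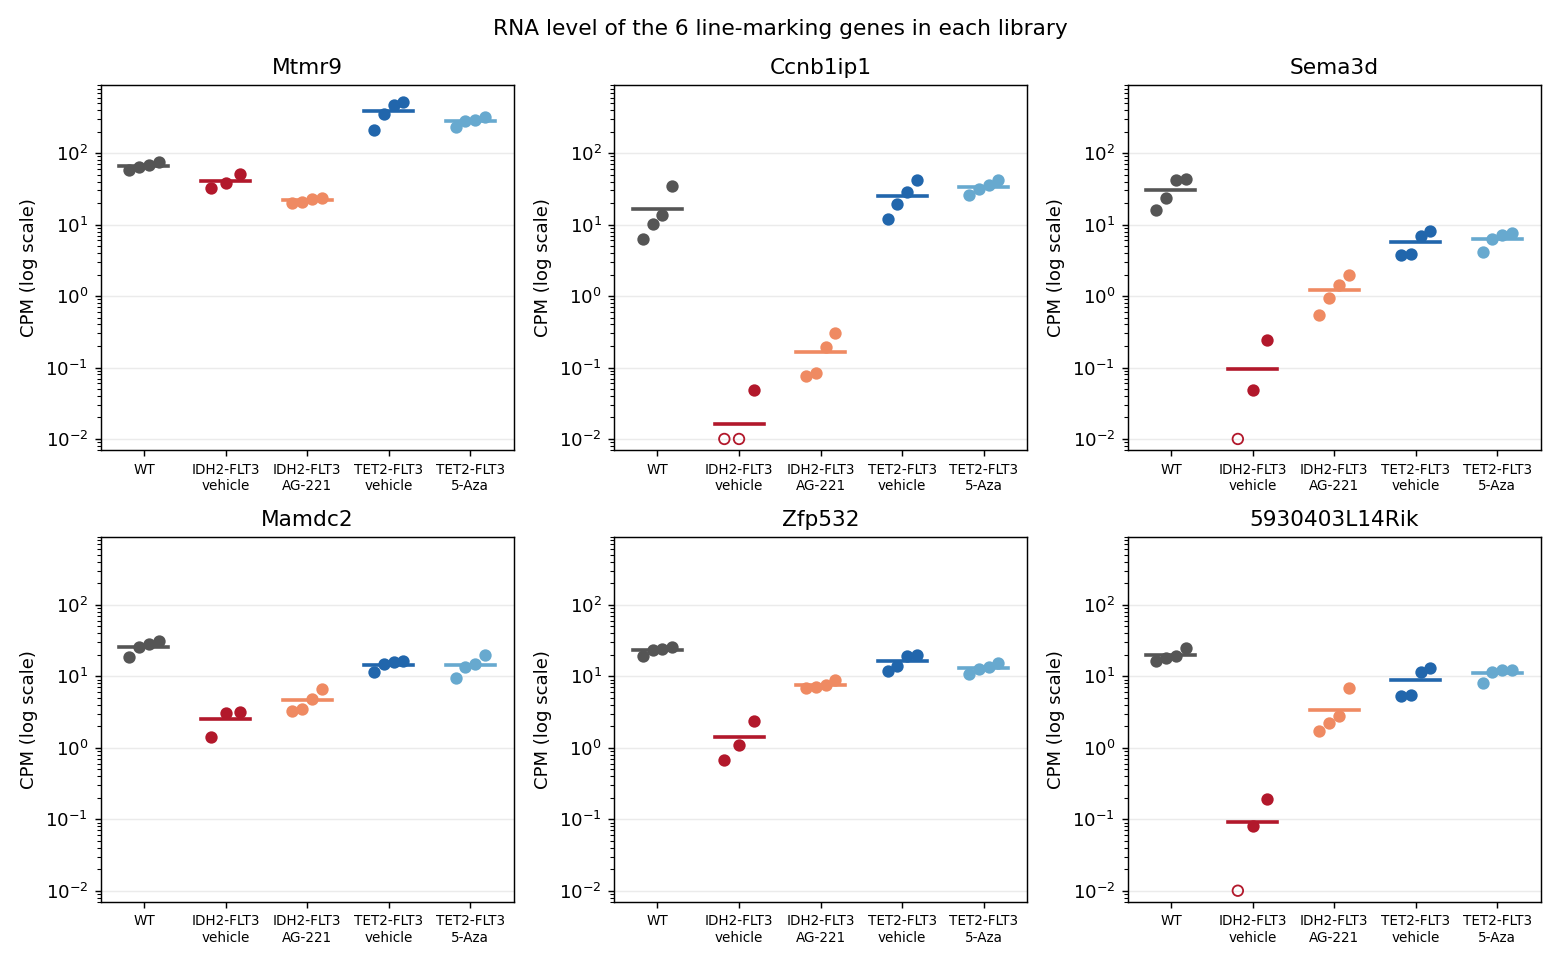
CPM on a log axis in each of the 19 libraries (points) with the group mean (bar), for WT, both IDH2-FLT3 groups (red) and both TET2-FLT3 groups (blue); open circles at the foot are libraries with 0 counts. Ccnb1ip1 is close to 0 in all 7 IDH2-FLT3 libraries, Mtmr9 lies above WT in the TET2-FLT3 line, and the other 4 genes are highest in WT.

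Set side by side, the difference between the lines was wider in the vehicle arms than in the drug arms for 5 of the 6 genes. In the vehicle arms the fitted log2 differences of Sema3d, 5930403L14Rik, Zfp532 and Mamdc2 were -5.81 ± 0.73, -6.29 ± 0.71, -3.54 ± 0.40 and -2.54 ± 0.39. In the drug arms they were -2.39 ± 0.50, -1.71 ± 0.47, -0.79 ± 0.32 and -1.64 ± 0.34. These contrasts chose the genes, and the counts of calls are a description. All 6 genes were called in the vehicle arms by edgeR. Of tested accessions 4.28% were called in either direction and 2.35% with the lower level in the IDH2-FLT3 line. In a fit of those groups alone 3 of 6 were called, where 17 of 10681 accessions were. In the drug arms 4 of 6 were called, against 0.744% in either direction and 0.194% lower. Zfp532 and 5930403L14Rik were not called there by edgeR, and DESeq2 called 5930403L14Rik as well. Without AZ10, AZ11 or AZ16 of 5-Aza, 2 of 6 were called in the drug arms, where 18, 26 and 26 accessions were. Without AG1 5930403L14Rik was called too, where 197 accessions were. All 6 did not overlap between the lines within the vehicle arms, where 4.51% of accessions were lower without overlap, nor within the drug arms, where 5.23% were. Over 7 against 8 libraries, 5 of 6 did not overlap, and 0.254% of accessions were lower in this way.

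**Figure D2:**
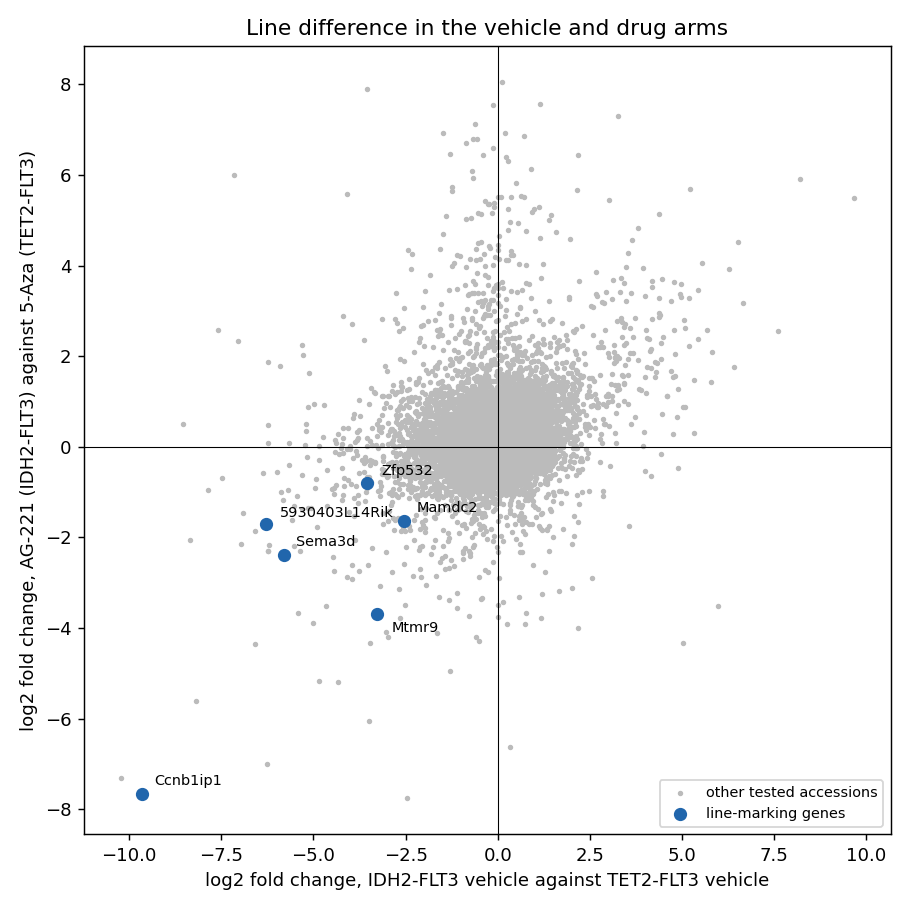
Log2 fold change between the lines for each tested accession, vehicle arms on the horizontal axis and drug arms on the vertical axis, with the 6 genes in blue. All 6 lie in the lower left corner; Ccnb1ip1 is at -9.65 and -7.67, and Zfp532 lies nearest to 0 on the drug-arm axis at -0.79.

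Against WT, the IDH2-FLT3 line was lower for all 6 genes without overlap over its 7 libraries (5.53% of accessions were). The vehicle group passed the threshold for 5 of them (20.5% of accessions passed in either direction) with log2 differences of -9.03 ± 0.90 for Ccnb1ip1, -8.26 ± 0.78 for Sema3d, -7.42 ± 0.73 for 5930403L14Rik, -4.05 ± 0.41 for Zfp532 and -3.38 ± 0.41 for Mamdc2. Mtmr9, at -0.72 ± 0.27, did not pass (edgeR, adjusted p = 0.0595), and passed in 3 of 13 alternatives: with DESeq2, on log2(FPKM + 1) and without V3-2 and V5-2 (lowest adjusted p = 0.0255). After AG-221 all 6 passed (2.71% of accessions), with Mtmr9 at -1.60 ± 0.25, Zfp532 at -1.62 ± 0.32, Mamdc2 at -2.49 ± 0.35, 5930403L14Rik at -2.52 ± 0.48, Sema3d at -4.68 ± 0.54 and Ccnb1ip1 at -6.604 ± 0.66.

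The TET2-FLT3 line was set against the same WT libraries. In TET2-FLT3 vehicle 2 of 6 passed (10.1% of accessions), Mtmr9 with the higher level at 2.56 ± 0.26 and Sema3d with the lower at -2.45 ± 0.48 (log2). The same 2 passed after 5-Aza (1.72% of accessions), at 2.08 ± 0.25 and -2.29 ± 0.47. Mamdc2, Zfp532 and 5930403L14Rik lay under WT in both TET2-FLT3 groups without passing, at log2 differences of -1.13 to -0.51. An unadjusted p under 0.05 was reached by 4 of the 6 genes with vehicle and 5 after 5-Aza. The share of all accessions that reached it is not given here. DESeq2 called 4 and 3 of the 6, where it called 1928 and 635 of all accessions. In a fit of 5-Aza and WT alone, 5 of 6 were called, all but Ccnb1ip1, where 2157 of 10648 accessions were called. Whether the lines' differences from WT differ was not tested apart from the line contrasts, which chose the genes, so these values are not independent of the choice. The call of Sema3d after 5-Aza was lost when AZ10, AZ11, AZ17, wt3 or wt4 was left out (highest adjusted p = 0.0708, without wt3).

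The responses to the drugs were set out next, within each line. They are not independent of the choice either: the vehicle libraries they start from are those whose low or high level chose the genes, which favours a rise with AG-221 from the low IDH2-FLT3 vehicle level. With AG-221, 3 genes rose: 5930403L14Rik by 4.90 ± 0.70 on the log2 scale, Sema3d by 3.58 ± 0.73 and Zfp532 by 2.44 ± 0.39 (edgeR quasi-likelihood test, Benjamini-Hochberg adjusted p = 0.00267, 0.0107 and 0.00277). Mtmr9 fell by 0.88 ± 0.26 (adjusted p = 0.0399), and so moved further from WT. In all, 4 of 6 were called, against 9.68% of tested accessions, and all 6 separated the 4 AG-221 libraries from the 3 vehicle libraries without overlap, as 23.8% of accessions did in either direction. For Ccnb1ip1 that separation holds in CPM only, since V3-2, AG12 and AG8 each held 1 count and V3-2 was the deepest library of the line. Ccnb1ip1 (2.42 ± 1.19, adjusted p = 0.176) and Mamdc2 (0.88 ± 0.37, adjusted p = 0.120) did not pass.

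None of the 6 genes overlapped with WT after AG-221. Zfp532 then stood at 32.6% of the WT mean, against 6.02% with vehicle. For 5930403L14Rik the shares were 17.4% and 0.463%, for Mamdc2 17.7% and 9.68%, for Sema3d 3.91% and 0.311%, and for Ccnb1ip1 1.01% and 0.098%. Ccnb1ip1 therefore stayed near 0 with the drug, at 7 counts over 4 libraries.

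Some of these calls rest on single libraries. Without V3-2 and V5-2, the libraries whose headers repeat a number, 2 of 6 were called, Zfp532 and 5930403L14Rik (edgeR, adjusted p = 0.0174 and 0.00829). That fit called 265 accessions in all. The rise of Sema3d was not called without V3-2 (adjusted p = 0.075) or without V3 (0.055), and in the vehicle group it rests on 4 counts in all. Zfp532 and 5930403L14Rik passed with any 1 library left out (highest adjusted p = 0.0273 and 0.0134). In a fit of the compared groups alone, no accession of 10681 passed, although 4 of the 6 genes had an unadjusted p under 0.05, and on log2(FPKM + 1) only Zfp532 passed. The call of Mtmr9 was also lost with no filter on low counts and when any of the 7 compared libraries but V9 was left out (highest adjusted p = 0.211, without V3-2).

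Levels of cell type markers are set beside these responses. Among genes of the sorted compartment, Procr, the endothelial protein C receptor of stem cells, stood at 6.85 ± 5.88 CPM (SD, n = 3) in IDH2-FLT3 vehicle, 35.5 ± 6.605 (n = 4) in AG-221 and 64.8 ± 8.29 (n = 4) in WT. Cd34, a surface protein gene of progenitors, stood at 15.5 ± 0.442 CPM (n = 3), 8.38 ± 4.64 (n = 4) and 9.39 ± 2.37 (n = 4) in the same order. Meis1, a homeobox gene of stem cells, stood at 1.60 ± 1.35 CPM (n = 3), 3.25 ± 1.91 (n = 4) and 5.43 ± 0.723 (n = 4). Monocyte genes summed to 1609 to 2796 CPM in IDH2-FLT3 vehicle, 271 to 1779 in AG-221, 885 to 2065 in TET2-FLT3 vehicle, 156 to 350 in 5-Aza and 214 to 404 in WT. Neutrophil genes, 5 of 6 in the table, ranged from 795 to 23552 CPM in IDH2-FLT3 vehicle and from 1258 to 21879 in AG-221, so that those groups overlapped. They ranged from 164 to 2133 CPM in TET2-FLT3 vehicle, 453 to 1560 in 5-Aza and 1413 to 3807 in WT. The medians were 9945, 8358, 635, 1095 and 1895 CPM in the same order, so the lines differed in these markers. The summed level of 6 erythroid genes ranged from 82.4 to 173 CPM in the WT libraries, from 5.24 to 8.02 with vehicle and 5.23 to 25.01 with AG-221 in the IDH2-FLT3 line, and from 2.32 to 6.53 with vehicle and 27.1 to 62.4 with 5-Aza in the TET2-FLT3 line. The 6 B cell genes summed to between 382 and 431 CPM in the WT libraries and to between 46.3 and 139 in the leukemic ones. The part of cell composition in the responses and line differences of the 6 genes was not tested. In bulk RNA, fewer cells of a type and less RNA per cell cannot be told apart.

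Because secreted matrix and guidance proteins are also made by stroma and vessels, markers of these were summed as well. The sum of stromal genes ran from 3.55 to 5.12 CPM in WT, from 0.481 to 0.882 in IDH2-FLT3 vehicle and from 0.503 to 8.50 in AG-221, with Dcn at 0 in every group and Lum at 0 in all 4 leukemic groups. That of endothelial genes ran from 72.0 to 94.5 CPM in WT, from 23.2 to 85.4 in IDH2-FLT3 vehicle and from 41.3 to 68.0 in AG-221. Pecam1, which has 4 accessions, was at 0 throughout. In TET2-FLT3 vehicle and 5-Aza, stromal genes summed to 0.136 to 1.82 and 0.902 to 2.10 CPM. Endothelial genes summed there to 31.5 to 93.3 and 40.8 to 58.9 CPM.

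5-Aza moved none of the 6 genes past the threshold. No gene had an unadjusted p under 0.05 by edgeR, and DESeq2 called none, while edgeR called 1.88% of accessions. None separated the 5-Aza from the vehicle libraries without overlap, as 7.09% of accessions did. The fitted log2 differences were -0.48 ± 0.24 for Mtmr9, 0.44 ± 0.46 for Ccnb1ip1, 0.16 ± 0.46 for Sema3d, -0.02 ± 0.33 for Mamdc2, -0.31 ± 0.32 for Zfp532 and 0.32 ± 0.45 for 5930403L14Rik. Intervals of 2 standard errors were -0.97 to -0.0014 for Mtmr9 and -0.94 to 0.32 for Zfp532, and the widest upper bound was 1.35, for Ccnb1ip1. Mtmr9 thus kept 4.22 times its WT mean after 5-Aza, against 5.90 times with vehicle.

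The difference between the drug responses, AG-221 against vehicle less 5-Aza against vehicle, is in this model the drug-arm line difference less the vehicle-arm line difference. Both of those chose the genes, so its values, and the calls that follow, are a description and support nothing. On the log2 scale it was 4.58 ± 0.82 for 5930403L14Rik, 3.42 ± 0.87 for Sema3d, 2.75 ± 0.49 for Zfp532, 1.98 ± 1.24 for Ccnb1ip1, 0.90 ± 0.49 for Mamdc2 and -0.40 ± 0.36 for Mtmr9. Of the 6, edgeR called Zfp532 and 5930403L14Rik, where 0.228% of accessions were called, and DESeq2 called Sema3d as well. Neither of the first 2 was called without V3-2 or without V3 of IDH2-FLT3 vehicle, in the fit of the compared groups alone or on log2(FPKM + 1), and Zfp532 was not called without AZ16 or without V3-2 and V5-2. Drug and line change together in this contrast and cannot be told apart.

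**Figure D3:**
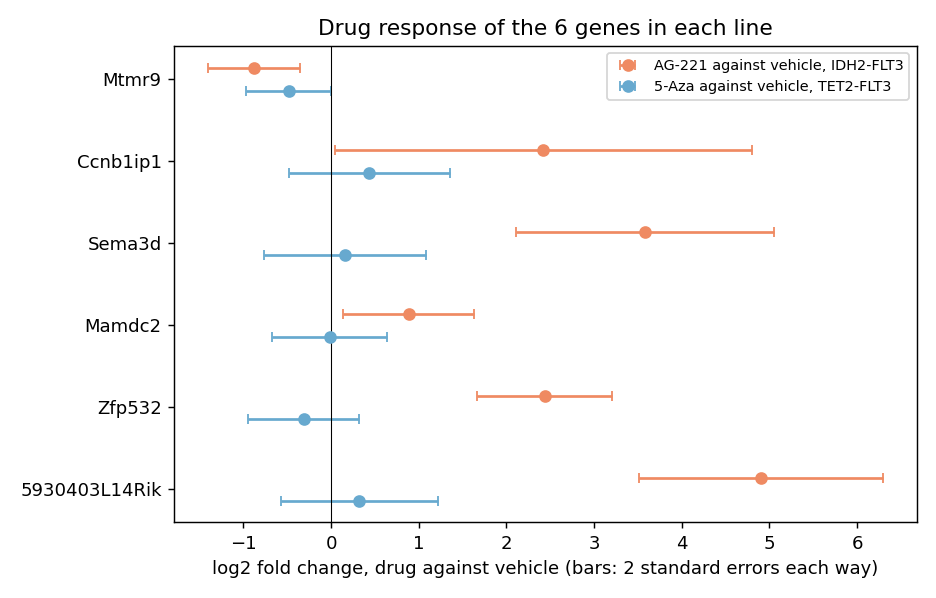
Log2 fold change of each gene with AG-221 in the IDH2-FLT3 line (orange) and with 5-Aza in the TET2-FLT3 line (blue), with bars of 2 standard errors each way. Sema3d, Zfp532 and 5930403L14Rik lie at 2.44 to 4.90 with AG-221, and all 6 genes lie between -0.48 and 0.44 with 5-Aza.

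The genes whose profiles over the 19 libraries lay nearest differed between the members. Likeness was the root mean square difference of log2 CPM after each gene was centred on its mean, a description that shares libraries and depth between genes. Sema3d and 5930403L14Rik were each other's nearest gene of those tested (0.87), with Unc45b, a myosin chaperone gene, next for both (0.999 and 0.898) and Ripply3 and Bgn, the latter encoding the matrix proteoglycan biglycan, after it. Zfp532 lay nearest to Procr (0.41), then to Snn and Mtss2 (0.55 each). Mamdc2 lay nearest to Adgrl4 (0.46), Clic5 (0.60) and Srsf12 (0.61). These genes too were high in WT and low in IDH2-FLT3 vehicle: Adgrl4, an adhesion receptor gene of vessels, stood at 947 CPM in WT and 134 in IDH2-FLT3 vehicle.

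The genes nearest to Ccnb1ip1 were interferon-induced, and so was 1 of those nearest to Mtmr9. For Ccnb1ip1 these were Ifi44l (1.396), Gbp2b (1.48) and Ifi44 (1.73), which at these distances were not close matches. Ifi44l stood at 54.0 CPM in WT, 0.128 and 0.141 in the IDH2-FLT3 groups, 148 in TET2-FLT3 vehicle and 22.9 in 5-Aza, so it too was near 0 in the IDH2-FLT3 line; its difference from Ccnb1ip1 with 5-Aza was not tested. Nearest to Mtmr9 were Sva (1.02), Oasl1 (1.03) and Slc1a1 (1.05), a glutamate transporter gene. Of these, Oasl1, an oligoadenylate synthetase-like gene, is the interferon-induced one. Sva and Slc1a1 stood at 0 and 0.271 CPM in WT.

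Among all accessions, 63 did not overlap between the lines over 7 against 8 libraries (0.533%). Ranked by the mean of both line differences, Ccnb1ip1 was 2nd of these, after Ifi44l, and Sema3d was 11th, Mtmr9 16th, Zfp532 31st and Mamdc2 33rd. The others of the first 10 were Ear1, Sva, Cldn34c1, Prg2, Gh, Ear6, Ifi44 and Mgam; Ear1, Ear6 and Prg2 are eosinophil granule genes and were higher in the IDH2-FLT3 line. At an adjusted p under 0.05 in both arms, 11 accessions were lower in the IDH2-FLT3 line (0.093%) and 11 higher, and 4 of the lower ones were Ccnb1ip1, Sema3d, Mtmr9 and Mamdc2.

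Position was examined because a stretch of chromosome inherited with a line, or next to an engineered allele, can carry variants that act on nearby genes, whereas an effect of the genotype need not follow position. In the GRCm38 annotation Mtmr9 and Ccnb1ip1 lie on chromosome 14, Sema3d on 5, Mamdc2 on 19, Zfp532 on 18 and 5930403L14Rik on 4. Idh2 lies on 7, Tet2 on 3 and Flt3 on 5, so no member but Sema3d shares a chromosome with an engineered gene, and 660 tested genes lie between Sema3d and Flt3. Among the 10 tested genes on each side of every member, 0 of 20 did not overlap between the lines. Over all accessions 0.533% did not overlap, so most sets of 20 genes would hold none. This count therefore cannot tell whether a stretch of chromosome differs between the lines.

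Immediate neighbours of Ccnb1ip1 were expressed in both lines. Ttc5, next to it, stood at 65.4 ± 18.6 CPM (SD, n = 3) in IDH2-FLT3 vehicle and 77.8 ± 30.9 (n = 4) in TET2-FLT3 vehicle, and Parp2 at 184 ± 59.2 and 183 ± 56.0. Their line differences in the vehicle arms were -0.25 ± 0.27 and 0.01 ± 0.27 on the log2 scale. The low level of Ccnb1ip1 was thus not shared by Ttc5 or Parp2. Its surroundings were not all flat. Rnase12, within 10 tested genes, differed by 9.66 in the vehicle arms and 5.50 in the drug arms, at a mean of 2.47 CPM. Tlr11 differed by -0.68 and 5.94. For Zfp532, Malt1 and Sec11c beside it differed by 0.25 ± 0.32 and 0.06 ± 0.32.

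Beside Mtmr9, several low genes were lower in the IDH2-FLT3 line in the vehicle arms. Xkr6 was at 0 in all 3 IDH2-FLT3 vehicle libraries and at 0.890 ± 0.451 CPM (SD, n = 4) in TET2-FLT3 vehicle, a difference that was called (edgeR, adjusted p = 0.00711), and stood at 0.268 ± 0.267 in AG-221 and 0.998 ± 0.395 in 5-Aza (n = 4 each; adjusted p = 0.333). Fam167a differed by -2.91 ± 0.90 (adjusted p = 0.0685) and Blk by -2.61 ± 1.08 (0.171) in the vehicle arms and by -0.36 ± 0.71 and 1.32 ± 0.86 in the drug arms. Fam167a and Blk, a B cell kinase gene, were highest in WT, at 11.8 ± 2.92 and 8.04 ± 2.08 CPM (n = 4 each), unlike Mtmr9. Pinx1, on the other side, differed by -0.14 ± 0.33. Near 5930403L14Rik, Arhgef16 was called in the vehicle arms (edgeR, adjusted p = 0.0337) at a low level, with 0 in IDH2-FLT3 vehicle and 1.17 ± 0.94 CPM (n = 4) in TET2-FLT3 vehicle. All 4 accessions of Prdm16, the gene next to 5930403L14Rik, were at 0 in every library. Prdm16 has several accessions, as Ly6a does, so these 0 counts do not tell whether it was expressed.

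**Figure D4:**
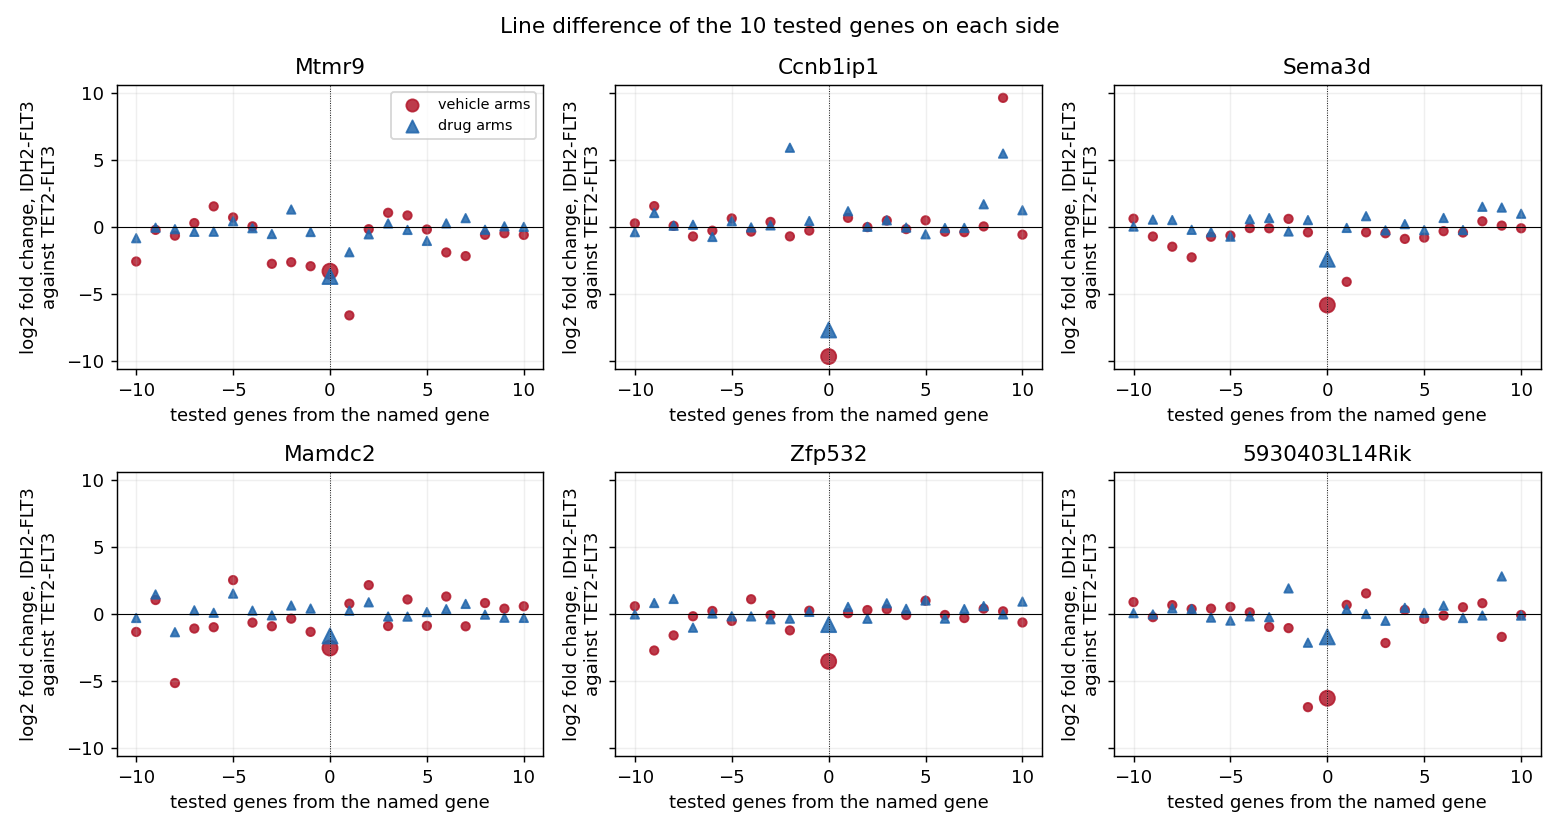
Log2 fold change between the lines for the 10 tested genes on each side of each gene, in RefSeq order, in the vehicle arms (circles) and drug arms (triangles); the large symbols at 0 are the named genes. Around Ccnb1ip1 its neighbours Ttc5 and Parp2 lie near 0 while it lies at -9.65 and -7.67. Further out in that panel, Rnase12 lies at 9.66 and 5.50 and Tlr11 at -0.68 and 5.94. Pclo beside Sema3d lies at -4.08 and -0.05, and Aldh1a1 near Mamdc2 at -5.15 and -1.36. Around Mtmr9 several neighbours, Xkr6, Fam167a and Blk among them, are more negative in the vehicle arms than in the drug arms.

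Chromosome 14 held more line-separating genes than the table as a whole. Of its 403 tested genes, 8 did not overlap between the lines (1.99%, against 0.533% overall), 5 lower and 3 higher in the IDH2-FLT3 line, and 5 were called in both arms. Ccnb1ip1 and Mtmr9 are among the 8 and among the 5. Both were chosen on this difference, so the share on chromosome 14 is not independent of the choice and was not tested. Between Ccnb1ip1 and Mtmr9 lie 126 tested genes, of which 4 did not overlap (3.17%): Rcbtb1 and Phf11d were lower and Ear6 and Arl11 higher. This stretch was examined because both genes lie on it, after their values were seen, and the share was not tested. On chromosomes 16 and X, which hold no member and no engineered gene, 1.11% of tested genes on each did not overlap between the lines. Chromosome 3, which holds Tet2, had 6 such genes of 529 (1.13%). All 6 have at most 44 tested genes between them and Tet2: Sgms2 with 4, Lamtor3 with 12, Gbp2b with 21, and Adgrl4, Ifi44 and Ifi44l with 42, 43 and 44. Sgms2 and Lamtor3 were higher in the IDH2-FLT3 line and the other 4 lower. None of the 6 line-marking genes is on that chromosome, although Adgrl4, Gbp2b, Ifi44 and Ifi44l were among the genes nearest to Mamdc2 and Ccnb1ip1 in profile. Around Idh2 and Flt3, 0 of 20 tested genes did not overlap, a count that most sets of 20 genes would show at 0.533% overall. Counts per gene carry no alleles, so whether a line carries variants at any of these genes was not tested.

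The partners of each gene were followed in lists of related genes. Of 14 tested myotubularins and enzymes of phosphatidylinositol 3-phosphate, 0 were called between the lines in either arm by edgeR or DESeq2 (1 had an unadjusted p under 0.05 in each arm), with a median log2 difference of 0.41 in the vehicle arms and -0.12 in the drug arms against 0.01 and 0.02 over all accessions. Against WT, 3 of 14 were called in IDH2-FLT3 vehicle (20.5% of all accessions were) and 2 of 14 in TET2-FLT3 vehicle (10.1%), all higher. Mtmr6, an active phosphatase that binds Mtmr9, and Mtmr4 were higher than WT in IDH2-FLT3 vehicle, by 0.99 ± 0.28 and 1.41 ± 0.29, and in TET2-FLT3 vehicle, by 0.94 ± 0.26 and 1.01 ± 0.27 (adjusted p = 0.0159, 0.00208, 0.0275 and 0.0225). Pik3c3, the kinase that makes the lipid, was higher in IDH2-FLT3 vehicle by 0.90 ± 0.23 (adjusted p = 0.00919). With AG-221, Mtmr4 fell by 1.06 ± 0.29 and Pik3c3 by 0.77 ± 0.23 (adjusted p = 0.0278 and 0.0393), 2 of 14 against 9.68% of all accessions.

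Some genes of the semaphorin list were called against WT in each of the 4 leukemic groups. Of 7 tested class 3 semaphorins, neuropilins and plexins, 4 were lower and 2 higher in IDH2-FLT3 vehicle, with a median of -1.72 against 0.02 over all accessions (log2; 20.5% of all accessions were called), and 3 were lower and 1 higher in TET2-FLT3 vehicle, with a median of -1.35 against 0.07 (10.1% called). After AG-221, 2 of 7 were called, the ligand gene Sema3f and the plexin gene Plxna2, both lower (2.71% of all accessions), and after 5-Aza 2 of 7, Plxna2 lower and the neuropilin gene Nrp1 higher (1.72%). In the vehicle groups, IDH2-FLT3 first, the log2 difference from WT was -4.86 (SE 1.0) and -5.18 (SE 0.92) for Plxna2, -7.31 (SE 1.42) and -3.08 (SE 0.87) for Sema3f, and 2.64 (SE 0.47) and 1.49 (SE 0.44) for Nrp1. Sema3f held 97 counts and Plxna2 159 over all 19 libraries, so their large differences rest on low counts. The list names 13 genes, of which 7 were tested. With AG-221, Nrp1 fell by 1.72 ± 0.46 (edgeR, adjusted p = 0.0270) while Sema3d rose. Between the lines, edgeR called 0 of 7 in either arm; 3 had an unadjusted p under 0.05 in the vehicle arms, where DESeq2 called 1, and 0 in the drug arms, where DESeq2 called 0.

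The remaining lists belong to Ccnb1ip1, Mamdc2 and Zfp532. Of 10 tested genes of meiotic crossover and cyclin B, 0 were called between the lines by edgeR or DESeq2 (2 and 0 with an unadjusted p under 0.05 in the vehicle and drug arms). Mus81, a crossover nuclease, fell by 1.39 ± 0.32 with AG-221 (edgeR, adjusted p = 0.0154). Syce1, of the synaptonemal complex, was lower in TET2-FLT3 vehicle than in WT (edgeR, adjusted p = 0.0328). Each was 1 of 10, where 9.68% and 10.1% of all accessions were called. Of 5 tested MAM domain genes, 0 were called between the lines by either tool (1 unadjusted in each arm). Against WT, 2 of 5 were called in each vehicle group, Mdga1 lower and Nrp1, which is also in this list, higher; 20.5% of all accessions were called in IDH2-FLT3 vehicle and 10.1% in TET2-FLT3 vehicle. Nrp1 was the 1 of 5 called after 5-Aza against WT, where 1.72% of all accessions were called. It was also the 1 of 5 called with AG-221 against vehicle, where 9.68% were. The log2 difference of Mdga1 from WT was -2.10 ± 0.48 in IDH2-FLT3 vehicle and -1.499 ± 0.42 in TET2-FLT3 vehicle. Of 6 tested complex partners of Zfp532, edgeR called 0 in any of the comparisons; with AG-221, where 1 had an unadjusted p under 0.05 and DESeq2 called 1, their median was -0.62 while Zfp532 rose by 2.44.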

How the data were processed

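Reads had been aligned by the authors to mm9 using STAR 2.4.0f1, with counting by featureCounts (Subread 1.4.5-p1), per the submitters' processing notes. The deposited count table gives raw counts for each RefSeq accession. The deposited FPKM equal counts per length and library total when recomputed. The kit was SMARTer Ultra Low Input, per the labels' protocols. Columns were joined to groups by header. Names came from RefSeq for 33485 of 33862 accessions and from GENCODE for 188; the 189 left unnamed, with 3.47% of the counts, stayed in library totals.

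The main test was the quasi-likelihood test of edgeR 4.0.16 (R 4.3.3) on 5 group means over all 19 libraries, with 14 residual degrees of freedom, after filterByExpr left 11830 accessions and TMM scaling (0.761 to 1.22). A gene was called at a Benjamini-Hochberg adjusted p under 0.05 over all tested accessions. CPM is each count scaled to the TMM-adjusted library total. A standard error is the log2 fold change over the root of its F statistic. The script was tested on simulated data. Alternatives were RLE factors, no filter, DESeq2 1.42.0, the compared groups alone, limma 3.58.1 on log2(FPKM + 1), each library left out, and, added after seeing the data, V3-2 and V5-2 left out together.

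The members and lists were chosen with earlier results of these data known. Named genes are the 6 members, the engineered genes, the 3 most alike genes and 3 neighbours on each side per member, the 10 largest line differences without overlap, and called list members, at most 4 per list and comparison; further genes named from stretches of chromosome were chosen after their values were seen. The summed level of the markers of the sorted compartment is not reported here.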

Additional observations from a re-analysis of the deposited data

Results flagged for a closer look

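For a pair of genes, the difference between the responses to AG-221 and 5-Aza was called. In this model it equals the drug-arm less the vehicle-arm line difference, which chose the genes, so the p-values below are not independent evidence of a difference. For Zfp532 the difference was 2.75 on the log2 scale (SE 0.49, edgeR, adjusted p = 0.0166), from a rise of 2.44 with AG-221 and a value of -0.31 with 5-Aza that was not called. For 5930403L14Rik it was 4.58 (SE 0.82, adjusted p = 0.0166), from a rise of 4.90 and a value of 0.32 that was not called. Without V3-2 the adjusted p was 0.0786 and 0.0544, and without V3 it was 0.0695 for each; without AZ16 it was 0.0514 for Zfp532. The drugs were given to different lines, so drug and line cannot be told apart.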

How the results depend on the processing

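Counts of accessions called, with the count among the 6 genes in brackets where it moved, are given for the comparisons in turn. For the lines in the vehicle arms (506, 6) they were 1150 with DESeq2, 17 (3) with the compared groups alone and 489 (5) on log2(FPKM + 1). They were 187 without V3-2 and V5-2, and 114 to 1656 with 1 library left out. For the lines in the drug arms (88, 4) they were 248 with no filter, 372 (5) with DESeq2 and 84 (3) with the compared groups alone. They were 49 (2) on log2(FPKM + 1), and 18 to 197 (2 to 5) with 1 library left out. For IDH2-FLT3 vehicle against WT (2428, 5) they were 3011 (6) with DESeq2, 2713 (6) on FPKM and 1828 (6) without V3-2 and V5-2. With 1 library left out they were 1261 to 2778. For AG-221 against WT (321) they were 589 with DESeq2, 823 with the compared groups alone, 655 on FPKM and 170 to 289 with 1 library left out. For TET2-FLT3 vehicle against WT (1199, 2) they were 1928 (4) with DESeq2, 1884 (4) on FPKM and 1492 (3) without V3-2 and V5-2. With 1 library left out they were 503 to 1410. For 5-Aza against WT (203, 2) they were 635 (3) with DESeq2, 2157 (5) with the compared groups alone and 844 (4) on FPKM. With 1 library left out they were 73 to 139 (1 to 2). For AG-221 against vehicle (1145, 4) they were 2108 with DESeq2, 1236 (1) on FPKM and 1213 (3) with no filter. With the compared groups alone they were 0 (0), where 2768 accessions had an unadjusted p under 0.05. They were 265 (2) without V3-2 and V5-2, and 97 to 2252 (2 to 4) with 1 library left out. For 5-Aza against vehicle (222) they were 462 with DESeq2 and 57 to 241 with 1 library left out. For the difference of the responses (27, 2) they were 185 (3) with no filter, 364 (3) with DESeq2 and 45 (0) on FPKM. With the compared groups alone they were 0 (0), where 1390 accessions had an unadjusted p under 0.05. They were 19 (1) without V3-2 and V5-2, and 0 to 644 (0 to 3) with 1 library left out. The causes were not tested. Signs turned only for values that were not called: the difference of responses of Ccnb1ip1 was -0.41 on log2(FPKM + 1), a scale that understates changes of low genes, and with 5-Aza Sema3d was -0.019 without V3-2 and V5-2 and -0.026 to 0.383 with 1 library left out, and Mamdc2 was 0.01 without AZ11, 0.04 without V5 and 0.14 without AZ17. RLE factors kept every call of the 6 genes. Against WT the median log2 difference over all accessions was -0.20 to -0.12 on FPKM and -0.03 to 0.07 by edgeR. No paired analysis was possible because the column headers of the leukemic groups carry no replicate number of the labels. Depth limits Ccnb1ip1, Sema3d and 5930403L14Rik in IDH2-FLT3 vehicle, which rest on 1, 4 and 5 counts.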
